A study of Mus musculus with 6 samples.

Results

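Bone-like cells were the barcodes in which transcripts of the bone matrix genes Bglap, Bglap2 and Ibsp made up a measurable part of the RNA. They were chosen by these measured values: a barcode needed at least 1000 unique molecular identifiers (UMIs, each a counted transcript molecule), at least 200 genes, at most 5% mitochondrial UMIs, at least 5 UMIs over Bglap, Bglap2 and Ibsp that made up at least 0.1% of its UMIs, and no more Col2a1 UMIs than this sum. This rule found 392 cells among 63329 filtered barcodes, or 0.619%. Cells with more Bglap and Bglap2 than Ibsp UMIs are called Bglap-led, and those with more Ibsp are called Ibsp-led. Since these genes and Col2a1 chose and split the cells, their levels are a description of the choice.

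Single-cell RNA of Achilles tendon cells was measured in mice that carried Gli1-CreERT2 and the Ai9 reporter and received tamoxifen, so that cells with active Gli1 at that time, and their descendants, kept the reporter. Sorting by the reporter separated Gli1+ from Gli1- cells of uninjured tendons and of tendons cut by tenotomy 7 or 21 days post-injury (dpi), which gave 6 libraries, 1 for each condition. Each time point had 8 mice, 24 in all, and which mouse a cell came from is not recorded in the labels. The comparisons therefore have no replicate check and no test was made: the 95% intervals (exact Poisson for levels, exact Clopper-Pearson for shares, exact conditional binomial for ratios) cover counting error only. All groups carried the reporter and Cre alleles and received tamoxifen, and the sort separates cells by their Gli1 history, not by Gli1 transcripts at the time of sorting. Among cells with a Pdgfra UMI, Gli1 itself had 15.0 CPM (UMIs per 1000000) in uninjured Gli1+ cells and 8.86 CPM in their Gli1- counterparts, 1.92 and 2.45 CPM at 7 dpi, and 3.64 and 4.12 CPM at 21 dpi. Gli1 RNA was thus higher in the Gli1+ fraction of uninjured tendon and not higher there after injury.

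The libraries held 72196599 to 135202247 UMIs, and 7516 to 12113 barcodes passed the filters in each. The labels state an equal sex distribution over the 24 mice and do not give it for each time point. The sex of the libraries differed with the condition: the female transcript Xist, without Y-linked transcripts, marked 92.8% and 90.9% of the filtered cells at 21 dpi but 0.00994% and 0.00918% at 7 dpi, where 72.0% and 71.8% had Y-linked transcripts alone. Uninjured Gli1+ cells were mixed, with 68.7% Xist alone and 14.6% Y-linked transcripts alone, and uninjured Gli1- cells were 0% and 60.8%. Of the bone-like cells, 27 of 42 in uninjured Gli1+ had Xist alone and 7 Y-linked transcripts alone, against 0 and 10 of 13 in uninjured Gli1-. Of those after injury, 148 of 156 and 138 of 147 at 21 dpi had Xist alone, and 13 of 18 and 13 of 16 at 7 dpi had Y-linked transcripts alone. The sex of the cells therefore cannot be told apart from the time after injury, nor, in uninjured tendon, from the sorted fraction. Pairs of libraries shared 17 to 38 filtered barcodes, no bone-like cell stood in both libraries of a pair, and 8 bone-like cells had a barcode that passed in another library.

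Osteoblasts arise from mesenchymal progenitors under the transcription factors Runx2 and then Sp7 (osterix). They first lay down type I collagen and raise the tissue phosphatase Alpl, then make Ibsp (bone sialoprotein), which binds mineral, and late Bglap (osteocalcin); cells buried in the matrix become osteocytes that express Dmp1, Mepe and Phex. In endochondral ossification, the route by which heterotopic bone usually forms in injured tendon, a cartilage model comes first, and its hypertrophic chondrocytes, marked by Col10a1, Ihh and Panx3, also express Ibsp, Spp1, Alpl and Mmp13. A cell with Ibsp can therefore be an osteoblast, a hypertrophic chondrocyte or another mineralizing cell, and the other genes of each cell are needed to describe it. Bglap, Bglap2 and Bglap3 are near-identical neighboring copies, and how the counting divided their reads is uncertain.

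Bone-like cells were few in every library and, over all filtered cells, most frequent at 21 dpi. They numbered 42 in the Gli1+ and 13 in the Gli1- library of uninjured tendon, 18 and 16 at 7 dpi, and 156 and 147 at 21 dpi, so that 303 of 392, or 77.3%, came from 21 dpi. As a share of the filtered cells they made up 0.559% (0.403 to 0.755) of uninjured Gli1+ and 0.107% (0.0572 to 0.183) of uninjured Gli1- cells. At 7 dpi Gli1+ cells held 0.179% (0.106 to 0.283) and Gli1- cells 0.147% (0.0839 to 0.238), and at 21 dpi the shares were 1.46% (1.24 to 1.7) and 1.22% (1.03 to 1.43). The intervals of the Gli1+ and Gli1- fractions were apart in uninjured tendon, where the fractions also differed in sex, and overlapped at both times after injury. A share also depends on what else the sort let through, so the share among cells with a Pdgfra UMI was taken as well. It was 1.75% (1.21 to 2.44) and 0.220% (0.117 to 0.375) in uninjured, 0.0931% (0.0302 to 0.217) and 0.122% (0.0559 to 0.232) at 7 dpi, and 1.42% (1.14 to 1.76) and 1.49% (1.21 to 1.82) at 21 dpi. Over this denominator the uninjured Gli1+ cells and both fractions at 21 dpi had overlapping intervals, and the libraries of 7 dpi and of uninjured Gli1- cells lay below them with intervals apart. This share counts only bone-like cells with a Pdgfra UMI, which were 34 of 42 and 13 of 13 in uninjured tendon. They were 5 of 18 and 9 of 16 at 7 dpi, and 84 of 156 and 94 of 147 at 21 dpi. The part of Pdgfra detection in this order of libraries was not tested.

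**Figure D1:**
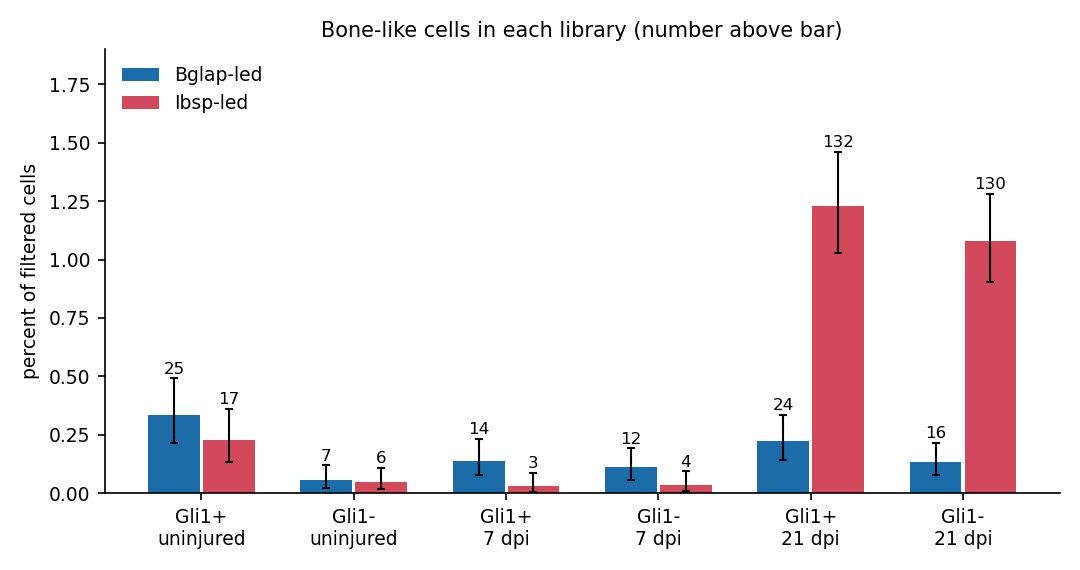
Share of filtered cells (percent) that were Bglap-led (blue) or Ibsp-led (red) in each of the 6 libraries, with exact 95% binomial intervals as bars and the number of cells above. The Ibsp-led bars at 21 dpi, with 132 and 130 cells, stand above 1% while every other bar stays below 0.5%.

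The higher number at 21 dpi was made up of Ibsp-led cells. Ibsp-led cells numbered 17 and 6 in uninjured Gli1+ and Gli1- libraries, 3 and 4 at 7 dpi, and 132 and 130 at 21 dpi. Bglap-led cells numbered 25 and 7, then 14 and 12, then 24 and 16 in the same order, and 2 tied cells belonged to neither. Bglap-led cells took 0.333% (0.215 to 0.491) of uninjured Gli1+ cells and 0.224% (0.144 to 0.334) of Gli1+ cells at 21 dpi, with overlapping intervals. Ibsp-led cells took 0.226% (0.132 to 0.362) of uninjured Gli1+ cells and 1.23% (1.03 to 1.46) of Gli1+ cells at 21 dpi, and their intervals were apart. Among the bone-like cells, the Ibsp-led part was 40.5% (25.6 to 56.7) in uninjured Gli1+, 84.6% (78.0 to 89.9) in Gli1+ at 21 dpi and 88.4% (82.1 to 93.1) in Gli1- at 21 dpi. The libraries at 7 dpi had the lowest Ibsp-led part, at 16.7% (3.58 to 41.4) and 25% (7.27 to 52.4), with wide intervals on 18 and 16 cells.

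How far the threshold decides membership differed between the libraries. The median sum of Bglap, Bglap2 and Ibsp per bone-like cell was 176 and 53.0 UMIs in uninjured Gli1+ and Gli1-, 13.5 and 21.0 UMIs at 7 dpi, and 86.5 and 73.0 UMIs at 21 dpi. Most cells of uninjured tendon and of 21 dpi thus stood far above the minimum of 5. The medians at 7 dpi were lower, with 5 of 18 Gli1+ and 2 of 16 Gli1- cells at 5 to 9 UMIs. Just inside, 6 cells had a sum of exactly 5 UMIs, and 4 otherwise qualifying cells had 4. The lowest share inside lay between 0.1% and 0.121% of UMIs in the libraries and the highest share just outside between 0.0778% and 0.0978%. A further 73 cells, 19 in the Gli1+ and 50 in the Gli1- library at 21 dpi among them, had enough Bglap or Ibsp but more Col2a1. Outside the bone-like cells, 9.07% and 11.9% of the other cells at 21 dpi held an Ibsp UMI, against 0.482% and 0.273% in uninjured tendon, while the bone-like cells held 94.3% and 85.4% of all Ibsp UMIs at 21 dpi.

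**Figure D2:**
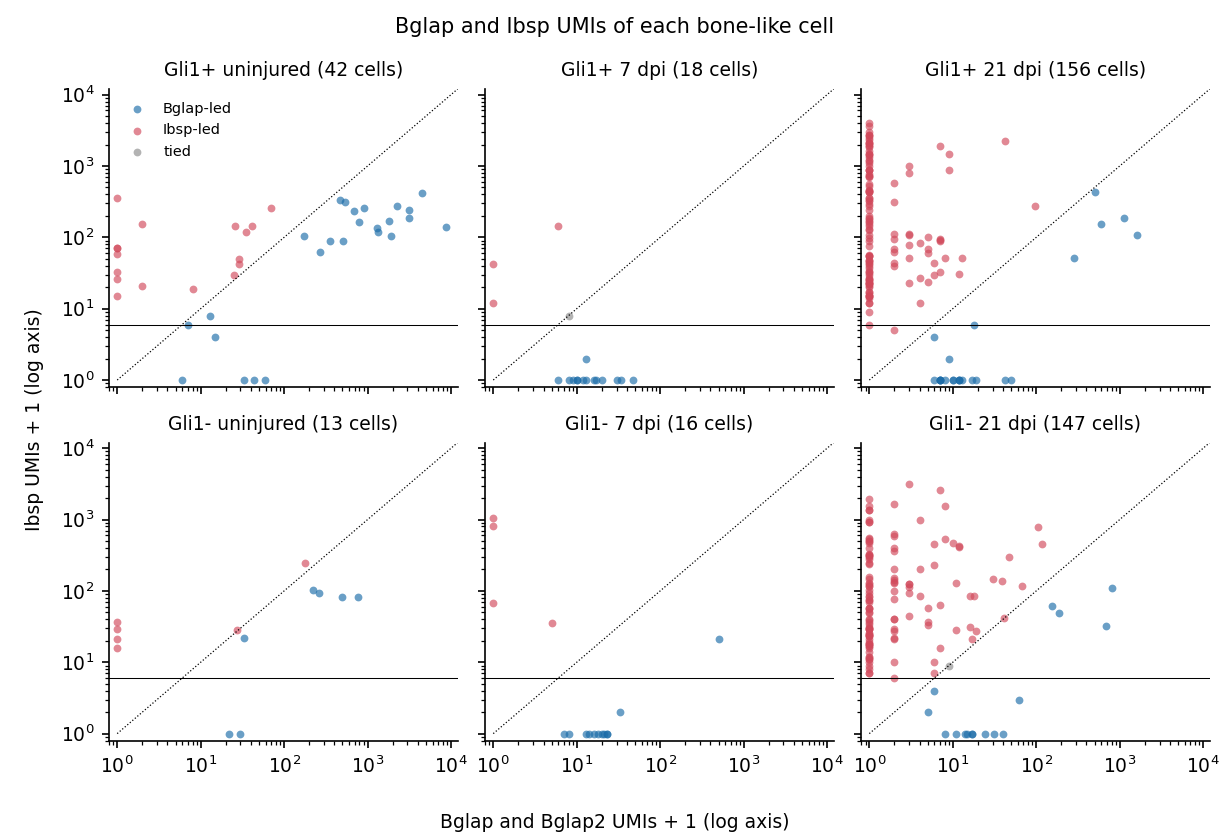
Bglap and Bglap2 UMIs (horizontal, plus 1, log axis) against Ibsp UMIs (vertical, plus 1, log axis) of each bone-like cell, 1 panel per library, with Bglap-led cells in blue, Ibsp-led in red and tied in grey. The dotted line marks equal counts and the solid line 5 Ibsp UMIs. The 20 Bglap-led cells with Ibsp of the uninjured Gli1+ library lie above the solid line, all 14 Bglap-led cells of Gli1+ at 7 dpi lie below it, and most cells at 21 dpi are Ibsp-led, with 132 and 130 cells.

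Bglap-led cells were divided at 5 Ibsp UMIs, a line drawn after the values were seen, into cells called here with and without Ibsp. Cells lay on both sides near the line, with up to 3 Ibsp UMIs below it and with 5 and 7 above it. The groups differed in Ifitm5, Phex and Alpl and had close thinned shares of Runx2 and Col1a1. With at least 5 Ibsp UMIs there were 36 cells, 20 and 5 in uninjured Gli1+ and Gli1-, 0 and 1 at 7 dpi, and 6 and 4 at 21 dpi. Without, there were 62 cells, 5 and 2 in uninjured, 14 and 11 at 7 dpi, and 18 and 12 at 21 dpi. Nearly all Bglap-led cells at 7 dpi therefore had under 5 Ibsp UMIs. The cells with Ibsp had a median of 20979.5 UMIs (2177 to 50179) and those without 6726 (1173 to 27837). Shares of cells are therefore also given after each cell was thinned to 1000 UMIs. Shares over the 36 and the 62 cells pool libraries that differ in time and sex. Kind of cell and library cannot be told apart in them.

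In the Bglap-led cells with Ibsp, the osteoblast genes Ifitm5, Phex and Alpl were found in most cells and the osteocyte genes Dmp1 and Mepe in a minority. Ifitm5, an osteoblast membrane protein, had a UMI in 35 of 36 cells with Ibsp and 3 of 62 without, or 55.6% and 1.61% after thinning. Phex, an endopeptidase of osteoblasts and osteocytes that regulates phosphate, was found in 30 of 36 and 2 of 62 (33.3% and 0% thinned). The difference in Ifitm5 and Phex thus held at equal depth. Dmp1, a mineral-binding protein of osteocytes, had a UMI in 15 of 36 and 0 of 62 cells, and Mepe, another osteocyte matrix protein, in 7 and 0. Alpl, a phosphatase that frees phosphate for mineral, was found in 36 of 36 and 24 of 62 (44.4% and 16.1% thinned). Col1a1, a chain of type I collagen, was at 97.2% and 93.5% after thinning.

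The cells with Ibsp varied by library. Bglap alone, without the Bglap2 that the choice of cells also used, stood at 44870.5 CPM in uninjured Gli1+ (median 640 UMIs per cell), 9192 CPM in uninjured Gli1-, 14091 CPM in the 1 cell of Gli1- at 7 dpi, 31189 CPM in Gli1+ at 21 dpi and 21863 CPM in Gli1- at 21 dpi. Ifitm5 was found in 20 of 20 cells of uninjured Gli1+, 5 of 5 of uninjured Gli1-, 1 of 1 at 7 dpi, 5 of 6 in Gli1+ and 4 of 4 in Gli1- at 21 dpi. Spp1 (osteopontin), a phosphoprotein of bone surfaces, went another way, with a UMI in 3 of 20 uninjured Gli1+ cells (231 CPM) and 4 of 5 uninjured Gli1- cells (1808 CPM) against 6 of 6 (7244 CPM) and 4 of 4 (2523 CPM) at 21 dpi. Dmp1 was found in 5 of 20 (54.2 CPM) and 2 of 5 (89.9 CPM) uninjured cells and in 5 of 6 (527 CPM) and 2 of 4 (296 CPM) cells at 21 dpi. The summed levels of Spp1 and Dmp1 at 21 dpi thus lay above those of the uninjured Gli1+ cells, on 6 and 4 cells, and 132 of the 162 Spp1 UMIs of the Gli1- library were in 1 cell.

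The 62 Bglap-led cells without Ibsp went against the label of bone cells in most of these genes. Runx2 was shared, with a UMI in 45 of 62 cells and 46.8% after thinning, against 36 of 36 and 47.2% in the cells with Ibsp. Sp7, which acts below Runx2 and is required for osteoblasts, was found in 14 of 62 against 31 of 36; after thinning to 1000 UMIs it was at 6.45% and 0%, a level near that of 1 UMI from which no order is read. Bglap alone was low, at 1069 and 706 CPM in uninjured Gli1+ and Gli1-, 913 and 341 CPM at 7 dpi, and 993 and 1609.7 CPM at 21 dpi, with medians of 2.0 to 17.0 UMIs per cell. These values leave out Bglap2, which the rule also counts. How reads were divided between the copies is uncertain, so no order of libraries is read from Bglap. In place of the osteoblast genes, other genes were found in these cells, named here after their values were seen. Ostn (osteocrin), a secreted peptide made by periosteal bone-lining cells, had a UMI in 30 of 62 cells without Ibsp and 1 of 36 with (22.6% and 0% thinned). Prg4 (lubricin), the lubricant of joint and sheath surfaces, was found in 44 of 62 and 8 of 36 (41.9% and 2.78% thinned). Ptn, a secreted growth factor, was found in 47 of 62 and 4 of 36 (38.7% and 2.78%), and Omd, a small leucine-rich proteoglycan of bone, in 35 and 11 (21.0% and 13.9%). These genes did not go together in every cell. At 7 dpi, a Gli1- cell with 1559 Prg4 UMIs held no Runx2, Ostn or Omd UMI. A Gli1+ cell with 16 Runx2, 5 Ostn and 7 Omd UMIs held no Prg4 UMI. Other cells held both, such as a Gli1+ cell at 21 dpi with 20 Ostn and 30 Prg4 UMIs. The pooled counts thus do not describe 1 kind of cell. The 62 cells are therefore called Bglap-led cells without Ibsp and given no cell type name.

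The content of the cells without Ibsp varied by library. Prg4 summed to 46044 CPM in the 5 uninjured Gli1+ cells, where 1 cell held 3511 of the 3660 UMIs and the other 4 came to 2885 CPM. It was at 8857 CPM in Gli1+ and 42363 CPM in Gli1- cells at 7 dpi, and 786 and 2753 CPM at 21 dpi. At 7 dpi, 1 cell held 329 of the 786 Prg4 UMIs in Gli1+, and 1 cell held 1559 of 4718 in Gli1-. Ostn was found in 1 of 5 and 2 of 2 uninjured cells, in 6 of 14 and 3 of 11 at 7 dpi, and in 11 of 18 (682 CPM) and 7 of 12 (367 CPM) at 21 dpi. Ostn was thus found in cells of every library. Wnt16, a secreted Wnt ligand of bone surfaces, was found in 11 of 18 cells of Gli1+ at 21 dpi (354 CPM) and in 24 of all 62. In Gli1- cells at 7 dpi, Htra4, F13a1 and Clic5 each had a UMI in 7 of 11 cells, at 1275, 1194 and 2460.3 CPM, and Ly6a, a surface marker of stem-like fibroblasts, in 11 of 11 at 1823 CPM. The epidermal markers Krt5, Krt14, Krt1 and Krt10 summed to 2389 CPM in the 14 Bglap-led cells of Gli1+ at 7 dpi, with at least 2 UMIs in 14 of 14, beside 3791 CPM in the Pdgfra cells of that library. Their part in these values was not tested.

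To set the bone-like cells against other mesenchymal cells, the UMIs of each class were summed and compared with the summed UMIs of the cells of the same library that had a Pdgfra UMI and were not bone-like. Pdgfra marks the fibroblast-like cells of the tendon and its sheath, and 239 of the 392 bone-like cells had a UMI of it as well. Only classes of at least 20 cells were compared: Bglap-led cells of uninjured Gli1+ (25) and of Gli1+ at 21 dpi (24), and Ibsp-led cells at 21 dpi in Gli1+ (132) and Gli1- (130). A gene with at least 20 UMIs over both groups was called higher or lower when the bound of its 95% interval nearest 0 was at least 1 on the log2 scale, a 2-fold ratio. Of 15331 genes, 3.54% were called higher and 6.71% lower in uninjured Bglap-led cells. The median log2 ratio was -0.22 over all these genes and -0.47 over those with at least 200 UMIs. For Bglap-led cells at 21 dpi the shares were 1.66% and 1.05% (median 0.51, where genes without a UMI in these 24 cells stand at their bound, and 0.02 over genes with at least 200 UMIs). For Ibsp-led cells at 21 dpi they were 2.34% and 3.79% in Gli1+ (median -0.10) and 2.29% and 2.10% in Gli1- (median 0.02). Over genes with at least 200 UMIs these medians were -0.20 and -0.07. With the cells limited after seeing the data, 172 lower genes of Bglap-led cells at 21 dpi became 342 in those with at least 5 Ibsp UMIs, and the 385 higher and 624 lower genes of Ibsp-led Gli1+ cells became 241 and 317 in those without Col2a1, as 352 lower genes became 204 in Gli1-. The Pdgfra cells also carried markers of other cell types. Cells with more Col2a1 than bone gene UMIs were kept among them where they had a Pdgfra UMI. In the uninjured Gli1+ library the immune list summed to 256 CPM in them against 30.0 CPM in Bglap-led cells, the epidermal list to 138 against 22.1 CPM and the erythroid list to 109.8 against 12.6 CPM, with 3 of 6, 3 of 4 and 3 of 4 markers called lower. At 21 dpi the epidermal list summed to 665 CPM in Pdgfra cells against 223 CPM in Bglap-led and 216 CPM in Ibsp-led cells of Gli1+ (1 and 3 of 4 lower), and to 74.9 against 24.9 CPM in Ibsp-led cells of Gli1- (2 of 4), where 4 of 4 erythroid markers were lower as well. The part of these markers in the ratios was not tested. The shares of called genes are the background for the lists below, and the lists were chosen with earlier results of these data known.

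**Figure D3:**
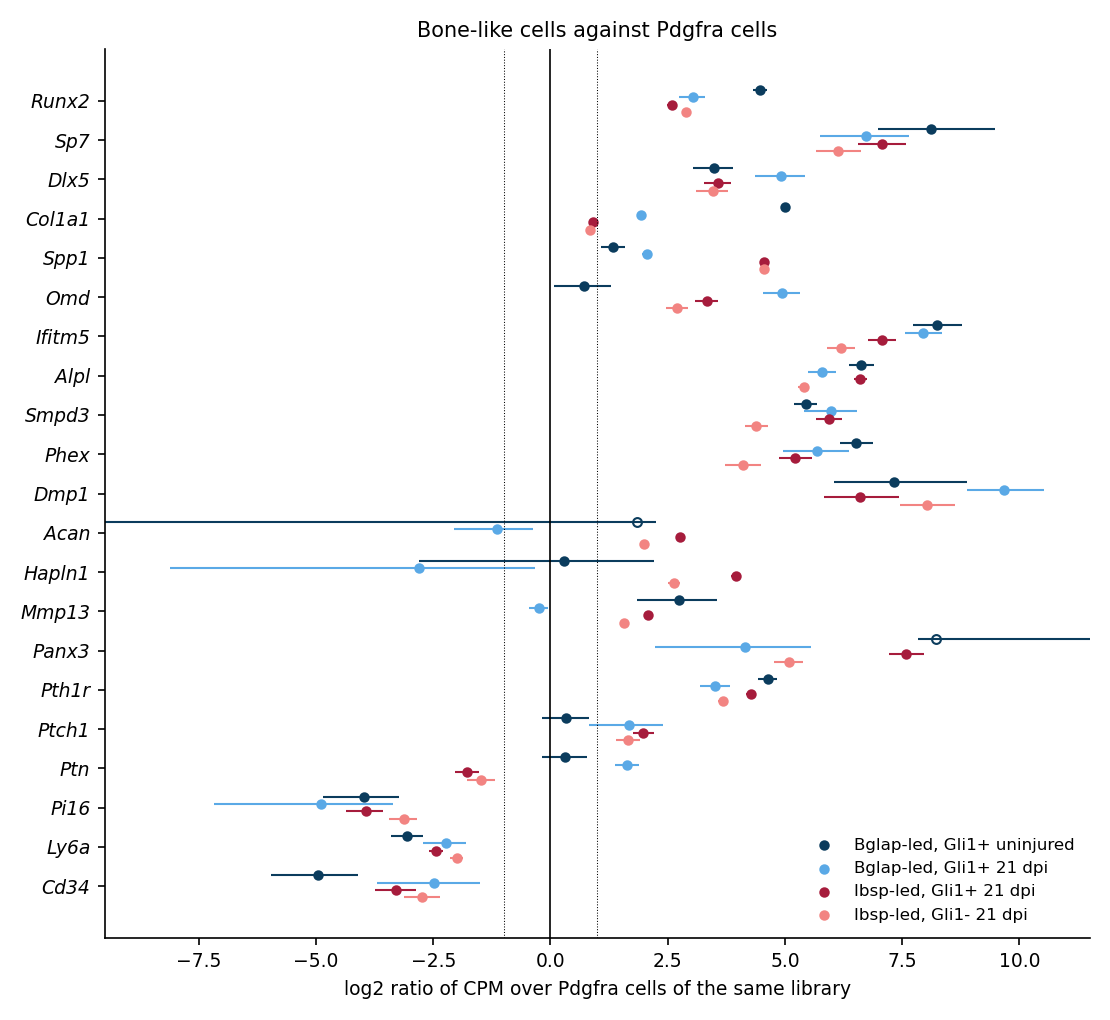
Log2 ratio of summed CPM in each bone-like class over the Pdgfra cells of its library, with 95% intervals, for 21 genes ordered by role. An open circle is a bound where a group had no UMI, and dotted lines mark a 2-fold ratio. Runx2, Sp7, Dlx5 and Alpl lie to the right for all 4 classes, Acan and Hapln1 for the red Ibsp-led classes, and Pi16, Ly6a and Cd34 to the left for all 4.

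Osteoblast transcription factors were higher in every class. Of the 8 genes, 6 of 7 tested were called higher in uninjured Bglap-led cells, 5 of 8 in Bglap-led and 5 of 8 in Ibsp-led Gli1+ cells at 21 dpi, and 5 of 7 in Ibsp-led Gli1- cells, with median log2 ratios of 4.47, 4.75, 3.03 and 3.46 and none lower. Runx2, Sp7 and Dlx5 were called in all 4 comparisons. Runx2, the first factor of the lineage, stood at 915 CPM in uninjured Bglap-led cells against 41.3 CPM in Pdgfra cells, a log2 ratio of 4.47 (4.32 to 4.62). At 21 dpi it stood at 532 CPM in Bglap-led cells (3.03, 2.74 to 3.30), 393 CPM in Ibsp-led Gli1+ cells (2.59, 2.48 to 2.70) and 559 CPM in Ibsp-led Gli1- cells (2.89, 2.80 to 2.99). Runx2 was thus not rare in the other mesenchymal cells at 21 dpi, at 65.2 and 75.3 CPM. Sp7 was nearly absent there, at 0.624 and 0.821 CPM, and stood at 66.5 CPM in Bglap-led and 83.4 and 57.9 CPM in Ibsp-led cells at 21 dpi, with log2 ratios of 6.73 (5.74 to 7.64), 7.06 (6.56 to 7.59) and 6.14 (5.66 to 6.63). Dlx5, a homeobox factor of osteoblasts, was at 99.6 CPM in uninjured Bglap-led cells against 8.92 CPM (3.48, 3.04 to 3.90) and at 65.4 and 51.4 CPM in Ibsp-led cells at 21 dpi (3.57, 3.28 to 3.86, and 3.46, 3.11 to 3.79). Atf4, a stress-responsive factor of osteoblasts, was not called in any of the 4, with log2 ratios between -0.77 and 0.34.

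Free RNA in droplets can give UMIs to cells that do not express a gene, so the shares of cells with a UMI were set beside those of endothelial cells, chosen by at least 2 Cdh5 or Pecam1 UMIs and no Pdgfra. After thinning to 1000 UMIs, Runx2 was found in 60.0% (38.7 to 78.9) of uninjured Bglap-led cells and 7.38% of endothelial cells of that library. At 21 dpi it was found in 34.8% (26.8 to 43.6) of Ibsp-led Gli1+ and 45.4% (36.6 to 54.3) of Ibsp-led Gli1- cells, against 1.25% and 1.25% of endothelial cells. Unthinned shares of Runx2 were 96.0%, 92.4% and 91.5%, at median depths of 24033, 14026 and 13374 UMIs in the bone-like and 7982, 6488 and 5121 UMIs in the endothelial cells. Runx2 was thus above the background share in the same library. Unthinned shares of Sp7 were 88.0%, 58.3% and 40.0% at the same depths, against 0.0595%, 0% and 0.163% of endothelial cells. Its thinned shares rest on 3, 9 and 5 cells, at 12.0% (2.55 to 31.2), 6.82% (3.16 to 12.5) and 3.85% (1.26 to 8.75), against 0% (up to 0.179%), 0% (up to 0.940%) and 0.0544%. This thinning was a separate random draw from that of the cells with and without Ibsp, where no cell with Ibsp kept an Sp7 UMI.

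Bone matrix genes were called higher in all 4 classes, in differing numbers. Of 10 matrix genes, 7 of 10 were called higher and 1 lower in uninjured Bglap-led cells (median log2 ratio 4.10), 6 higher and 2 lower of 9 in Bglap-led cells at 21 dpi (1.93), and 3 higher and 0 lower of 9 in Ibsp-led cells of either fraction (0.87 and 0.78). The 7 include Bglap3, whose reads may be those of its copies in the rule. Col1a1, the main chain of bone and tendon collagen, stood at 68364 CPM in uninjured Bglap-led cells against 2119 CPM (log2 ratio 5.01, 4.99 to 5.03). At 21 dpi it stood at 59024 CPM in Bglap-led cells against 15473 CPM (1.93, 1.91 to 1.96), and at 29061 and 23668 CPM in the Ibsp-led cells of the fractions (0.91, 0.90 to 0.92, and 0.84), which missed the call. With TMM or DESeq2 scaling the Gli1+ value passed it, at 1.05 and 1.06. Spp1 was called higher in all 4 classes. It was at 206 CPM against 81.4 CPM in uninjured Bglap-led cells (1.34, 1.07 to 1.60), a call lost without likely doublets (1.22) or with 2 Pdgfra UMIs required (1.26), and at 3343 against 802 CPM in Bglap-led cells at 21 dpi (2.06, 1.95 to 2.17), from 9 of 24 cells. In Ibsp-led cells it was at 18775 and 22899 CPM against 802 and 969 CPM (4.55, 4.53 to 4.57, and 4.56, 4.55 to 4.58). After thinning, Spp1 was found in 82.6% (75.0 to 88.6) and 81.5% (73.8 to 87.8) of Ibsp-led cells, in 12.0% of uninjured Bglap-led cells, and in 8.46% and 13.8% of endothelial cells at 21 dpi. Ifitm5 was called in all 4 comparisons, at 534, 461, 248 and 149 CPM in the order of the classes above and at most 2.05 CPM in Pdgfra cells. In Bglap-led cells at 21 dpi all of its UMIs were in the 6 cells with Ibsp and none in the 18 without. Mgp, an inhibitor of mineralization, was lower in both Bglap-led classes, at 189.7 against 1510.4 CPM (-2.99) and at 897 against 2646 CPM (-1.56).

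Of 8 mineralization genes, 3 were called higher and 1 lower of 7 tested in uninjured Bglap-led cells, and 4 higher with none lower in each class at 21 dpi. Alpl stood at 757, 527, 929 and 696 CPM in the order of the classes, against 7.65, 9.50, 9.50 and 16.5 CPM, with log2 ratios of 6.63 (6.37 to 6.90), 5.79 (5.49 to 6.09), 6.61 (6.48 to 6.74) and 5.40 (5.28 to 5.52). Smpd3, a sphingomyelinase that mineralization of bone and cartilage needs, was at 495, 161, 155 and 116 CPM and at most 11.4 CPM in Pdgfra cells. Alpl and Smpd3 were thus high in all 4 classes. Phex was at 409, 99.7, 72.2 and 47.6 CPM, highest in uninjured Bglap-led cells, and at most 4.46 CPM in Pdgfra cells. In Bglap-led cells at 21 dpi most of its UMIs were in cells with Ibsp, with 13 in 1 cell. Ank, the transporter of pyrophosphate, was called higher in the Ibsp-led cells alone of the 4 classes, at 114 against 44.4 CPM (1.36, 1.16 to 1.55) and 166 against 58.0 CPM (1.51, 1.34 to 1.68).

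Among 7 osteocyte genes, Dmp1 and Irx5 were called higher in all 4 comparisons. Dmp1 was at 47.4 CPM in uninjured Bglap-led cells against 0.294 CPM (log2 ratio 7.33, 6.04 to 8.89) and at 237 CPM in Bglap-led cells of 21 dpi against 0.289 CPM (9.68, 8.89 to 10.53). In Ibsp-led cells it was at 28.1 and 108 CPM (6.60, 5.83 to 7.43, and 8.02, 7.45 to 8.63), from 4 of 132 and 10 of 130 cells, where 1 cell held 47 of 58 and 79 of 200 UMIs. Dmp1 therefore came from few cells of each class. Mepe had 19 UMIs in uninjured Bglap-led cells and 1 in Pdgfra cells, which just met the minimum of 20 (9.26, 6.61 to 14.64), and in the other 3 comparisons it was under that minimum and not tested. Ackr3 was called lower in both Bglap-led and Pdpn in both Ibsp-led classes. Of 4 genes by which bone cells direct osteoclasts, none was called in the Bglap-led classes and 1 in each Ibsp-led class. Il34, a ligand of the Csf1 receptor, was lower in Ibsp-led Gli1+ cells, at 1.45 CPM with a log2 ratio of -2.99 (-5.27 to -1.43). Tnfsf11 (RANKL) was at 104 CPM in Ibsp-led Gli1+ cells against 101 CPM in Pdgfra cells (0.04, -0.16 to 0.24), and its decoy receptor Tnfrsf11b was called higher in Ibsp-led Gli1- cells, at 27.1 against 7.88 CPM (1.78, 1.33 to 2.20).

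Most cartilage genes were called higher in Ibsp-led cells of 21 dpi, and few in either Bglap-led class. Of 16 cartilage genes, 13 of 15 tested were called higher in Ibsp-led Gli1+ cells (median log2 ratio 2.76) and 10 of 16 higher and 1 lower in Ibsp-led Gli1- cells (1.54), against 2 higher and 3 lower of 12 in uninjured Bglap-led cells and 2 higher of 15 in Bglap-led cells at 21 dpi. The choice of cells allowed Col2a1 up to the sum of the bone genes. Acan, the main proteoglycan of cartilage, was at 919 against 136 CPM in Ibsp-led Gli1+ cells (2.76, 2.68 to 2.83) and 659 against 164 CPM in Gli1- cells (2.0). Snorc, a proteoglycan of chondrocytes, was at 724 against 31.5 CPM (4.52, 4.43 to 4.62) and 1066 against 93.5 CPM (3.51, 3.44 to 3.59). In the Ibsp-led cells without Col2a1, Snorc was at 9.74 and 28.8 CPM, below the Pdgfra cells of both fractions. Acan there was at 381 CPM in Gli1+, above the Pdgfra cells. In Gli1- it was at 144 CPM (119 to 172), an interval that includes the 164 CPM of the Pdgfra cells. These Pdgfra cells included cells with more Col2a1 than bone gene UMIs. In Gli1+ and Gli1- the highest Acan count of a cell, 252 and 287 UMIs, was the same in Pdgfra cells and in cells led by Col2a1. The part of such cells in the cartilage gene levels of the Pdgfra cells was not tested. Sox9, the transcription factor of chondrocytes, was called higher in Gli1+ cells, at 194 against 83.3 CPM (1.22, 1.07 to 1.37), and missed the call in Gli1- cells, at 136 against 77.6 CPM (0.81). In uninjured Bglap-led cells Sox9 was at 3.16 against 65.6 CPM, a log2 ratio of -4.37.

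Of the genes of hypertrophic cartilage, 5 of 6 were called higher in Ibsp-led cells of either fraction (median log2 ratios 4.67 and 4.38), 3 of 4 tested in uninjured Bglap-led cells (Mmp13, Panx3 and Pth1r, median 3.69) and 2 of 6 in Bglap-led cells at 21 dpi (Panx3 and Pth1r, median 1.12). The Mmp13 UMIs of the uninjured class came from cells without Ibsp, with 13 in 1 cell and 2 in another. The Panx3 UMIs of Bglap-led cells at 21 dpi came from cells with Ibsp, with at most 2 in a cell. Col10a1 had no UMI in that class and enters its median at a bound. Col10a1, the collagen of hypertrophic chondrocytes, had 1088 against 20.9 CPM in Gli1+ cells (5.70, 5.61 to 5.80) and 929 against 5.46 CPM in Gli1- cells (7.41, 7.25 to 7.58). These UMIs came from 13 of 132 and 9 of 130 Ibsp-led cells, with up to 803 and 432 UMIs in a cell, and no Ibsp-led cell of the 4 other libraries held any. Ihh, the hedgehog ligand of prehypertrophic and hypertrophic chondrocytes, was found in 21 of 132 (84.3 CPM) and 10 of 130 cells (56.3 CPM) and likewise in no Ibsp-led cell of the other libraries. Col10a1 and Ihh were thus detected in a minority of the Ibsp-led cells at 21 dpi. Mmp13, the collagenase of hypertrophic chondrocytes and osteoblasts, was spread more widely, in 117 of 132 and 117 of 130 cells, at 5103 against 1213 CPM (2.07, 2.04 to 2.10) and 4688 against 1595 CPM (1.56, 1.52 to 1.59). Its cell counts are unthinned and have no endothelial share beside them, and the part of free RNA was not tested. Pth1r, the Gs-coupled receptor for parathyroid hormone and its related peptide, was called higher in all 4 classes, at 558, 413, 699 and 489 CPM against 22.6, 36.2, 36.2 and 38.2 CPM. Panx3, a channel protein of hypertrophic chondrocytes and osteoblasts, was at 44.3 CPM in uninjured Bglap-led cells and in no Pdgfra cell of that library, at least 8.23 on the log2 scale with 3 UMIs as the floor, and at 207 and 90.3 CPM in Ibsp-led cells at 21 dpi (7.58, 7.22 to 7.97, and 5.08, 4.77 to 5.39).

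The Ibsp-led cells of 21 dpi were not uniform, and most cartilage genes differed between those without and those with the most Col2a1. At 0, 1 to 19 and at least 20 Col2a1 UMIs, limits set after the values were seen, they numbered 65, 35 and 32 in Gli1+ and 68, 37 and 25 in Gli1-. Since deep cells reach 20 UMIs more easily and Col2a1 was part of the rule, the groups are a description. Between the outer groups, 2.95% of 7154 genes were called higher without Col2a1 and 1.80% lower in Gli1+ (median 0.22), and 2.77% and 1.76% of 7037 in Gli1- (median 0.21). Of the lists, 12 of 15 cartilage genes were called lower without Col2a1 in Gli1+ and 13 of 14 in Gli1-, and 4 of 6 hypertrophic genes in either. Ibsp itself was at 15003, 23537 and 68142 CPM along the 3 groups of the Gli1+ library, and at 8883, 17129 and 41509 CPM along those of the Gli1- library. For Col10a1 the Gli1+ groups held 0, 97.8 and 3179.7 CPM and the Gli1- groups 1.20, 26.1 and 3871 CPM, found in 11 of 32 and 7 of 25 cells with at least 20 Col2a1 UMIs. Ihh followed with 2.43, 21.7 and 232 CPM in the Gli1+ groups against 1.20, 0 and 234 CPM. Panx3 was at 64.5, 123 and 446 CPM and at 28.8, 27.8 and 289 CPM, and Acan at 381, 661 and 1768 CPM and at 144, 344 and 2049 CPM. These genes of cartilage and its hypertrophy thus stood highest in the cells with the most Col2a1 in both fractions.

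**Figure D4:**
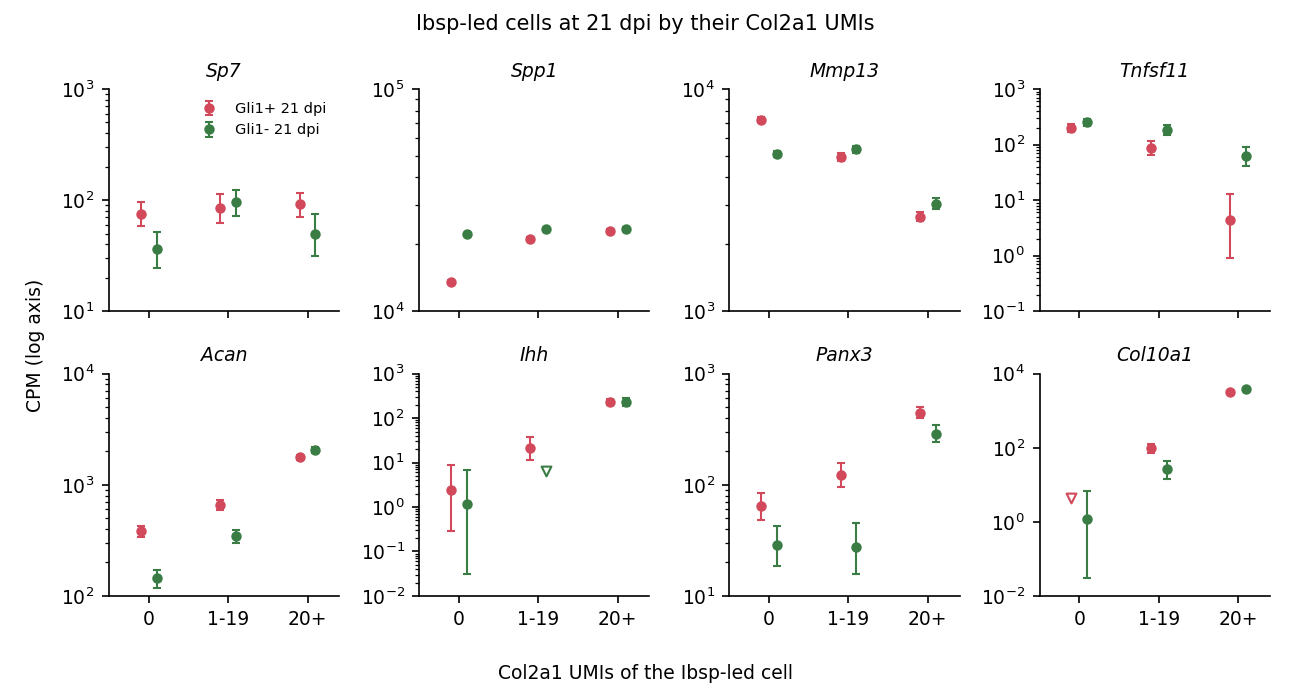
CPM (log axis) of 8 genes summed over the Ibsp-led cells at 21 dpi with 0, 1 to 19 and at least 20 Col2a1 UMIs, in Gli1+ (red) and Gli1- (green), with exact Poisson 95% intervals. An open triangle is the upper limit of a count of 0. Acan, Ihh, Panx3 and Col10a1 stand highest at 20 and more Col2a1 UMIs, Tnfsf11 and Mmp13 stand lowest there, and Sp7 shows no common order.

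Another set of genes went the other way. Mmp13 was at 7262, 4941 and 2657 CPM in Gli1+ cells with 0, 1 to 19 and at least 20 Col2a1 UMIs, and the Gli1- groups held 5094, 5352 and 3049.6 CPM. Between the outer groups Mmp13 was called higher without Col2a1 in Gli1+ and missed the call in Gli1-, where the middle group was highest. Tnfsf11 was at 199.6, 86.9 and 4.35 CPM in the Gli1+ groups, with 253, 184 and 61.4 CPM in those of Gli1- cells, and between the outer groups its log2 ratio was 5.52 (3.95 to 7.81) for the Gli1+ cells and 2.04 (1.46 to 2.68) for the others. Cxcl12, a chemokine of marrow stroma and fibroblasts, was at 339.5, 154 and 40.6 CPM and at 592, 367 and 52.3 CPM. The Ibsp-led cells without Col2a1 thus held the most Tnfsf11 and Cxcl12 in both fractions. Markers of other cell types moved with this split: of the stem-like fibroblast markers, Pdgfra, Ly6a and Pi16 were called higher without Col2a1 in Gli1+ (3 of 5) and Ly6a in Gli1- (1 of 5), and of the marrow stroma markers Cxcl12 in Gli1+ (1 of 1 tested) and Cxcl12, Lepr and Adipoq in Gli1- (3 of 3). Of the cell cycle genes, 3 of 3 tested were higher in Gli1+ and 1 of 3 in Gli1-. Krt5 and Krt14 (2 of 4 epidermal markers) and Rgs5 (1 of 2 mural markers tested) were lower in Gli1+, and Ctsk (1 of 2 osteoclast markers tested) was higher in Gli1-. Their part in the split was not tested. Osteoblast genes followed Col2a1 in different ways, and none of 5 osteoblast factors was called between the outer groups. Runx2 was lowest with the most Col2a1 in both fractions, at 466, 375 and 321 CPM in the Gli1+ groups against 641, 521 and 455 CPM. Sp7 and Col1a1 had no order common to the fractions, Sp7 at 75.5, 85.1 and 91.4 CPM and at 36.0, 95.6 and 50.0 CPM and Col1a1 at 26678, 23289 and 36527 CPM and at 24476, 23076 and 22909 CPM. Alpl was highest with the most Col2a1, at 688, 732 and 1374 CPM and at 499, 599 and 1194 CPM. Mmp3, a stromelysin of activated fibroblasts, was at 1280.3 CPM without Col2a1 and 47.9 CPM with at least 20 UMIs in Gli1+ cells (4.74, 4.24 to 5.29), and the Pdgfra level was 185 and 33.4 CPM.

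Set against the Col2a1-led cells of the same libraries (185 in Gli1+ and 292 in Gli1- at 21 dpi, chosen by at least 5 Col2a1 UMIs above the bone sum), Ibsp-led cells held less of most cartilage genes and more of some bone genes. Of 10494 and 11383 genes tested, 1.53% and 2.10% were called higher and 2.50% and 1.49% lower, with medians of -0.05 and 0.08. Of the 16 cartilage genes, 13 were called lower in Gli1+ and 14 in Gli1-, with none higher (median log2 ratios -2.02 and -2.32). Acan was at 919 against 2608 CPM (-1.50) in the Gli1+ library and 659 against 2609 CPM (-1.98) in the other, and Ucma, a secreted protein of young chondrocytes, at 14.5 against 1608 CPM (-6.79) and 4.87 against 1769.8 CPM (-8.51). Both cartilage genes were thus lower in Ibsp-led cells, a description since Col2a1 separated the 2 classes. Among the Col2a1-led cells, 19 in Gli1+ and 50 in Gli1- also met the minimum for the bone genes. Of the osteoblast factors, 3 of 5 were called higher in either fraction, Sp7 among them: it was at 83.4 against 16.4 CPM (2.34) and 57.9 against 16.6 CPM (1.8). Of 9 bone matrix genes, 5 were called higher and 1 lower in Gli1+, and 3 higher and 2 lower in Gli1- (medians 1.20 and 0.97). Of 7 mineralization genes, 2 were called higher and 2 lower in Gli1+, and 2 higher with none lower in Gli1- (medians -0.34 and -0.18). Col10a1 did not pass, at 1088 against 621 CPM (0.81, 0.72 to 0.90) and 929 against 636 CPM (0.55, 0.46 to 0.63), while Mmp13 was called higher in both, at 5103 against 942 CPM (2.44, 2.37 to 2.5) and 4688 against 833 CPM (2.49, 2.44 to 2.55). Tnfsf11, not called against Pdgfra cells, was called higher here, at 104 against 17.2 CPM (2.60, 2.14 to 3.09) and 186 against 29.1 CPM (2.68, 2.38 to 2.98). The marrow stroma markers Cxcl12, Lepr and Adipoq, 3 of 3, were called higher in both fractions of the same comparison (median log2 ratios 3.58 and 3.86). In Gli1+, 3 of 4 epidermal markers (Krt5, Krt14 and Krt1) and Myh11 were lower and Acta2 and Tppp3 higher, and in Gli1- Mmp9 was higher and S100a8, Rgs5 and Tnmd were lower. The part of these markers in it was not tested. Wif1, a secreted Wnt inhibitor of chondrocytes and osteoblasts, did not pass, at 387 against 364 CPM and 249 against 154 CPM.

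Of 19 genes of the Gs and PKA pathway, which carries the signal of Pth1r through cyclic AMP, Pth1r was the only gene called higher in each of the 4 comparisons with Pdgfra cells, and 1, 1, 3 and 2 genes were called lower. Gnas, the Gs alpha subunit, was at 1314 against 1339.9 CPM (-0.03), 1429 against 1521 CPM (-0.09), 1014 against 1521 CPM (-0.58) and 1070.1 against 1447 CPM (-0.44), none of them called. The median log2 ratios of the list were -0.08, -0.09, -0.47 and -0.24. Over all genes with at least 200 UMIs the medians were -0.47, 0.02, -0.20 and -0.07 in the same order. The list median thus lay above this centre in uninjured Bglap-led cells and below it in the classes of 21 dpi. Of 10 hedgehog genes, Ihh and the pathway targets Ptch1 and Hhip were called higher in both Ibsp-led classes and none in the Bglap-led classes; Ptch1 was at 88.2 against 22.4 CPM (1.98, 1.75 to 2.20) and 77.9 against 24.7 CPM (1.66, 1.40 to 1.91). Gli1 RNA stood at 7.76 and 4.87 CPM in the Ibsp-led cells of the Gli1+ and Gli1- fractions, from 14 of 132 and 8 of 130 cells, and was not called.

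In the BMP list of 16 genes, 1 was called higher and 3 lower in uninjured Bglap-led cells, 4 and 1 in Bglap-led cells at 21 dpi, and 3 and 1 and 4 and 1 in the Ibsp-led classes. Bmp2, a bone-inducing ligand, was at 155 against 65.7 CPM (1.24, 1.07 to 1.40) and 171 against 57.0 CPM (1.58, 1.41 to 1.75) in the Ibsp-led classes. Its secreted antagonist Nog was higher in all 3 classes of 21 dpi, at 42.7, 16 and 16.8 CPM against 2.56, 2.56 and 3.16 CPM. Grem1, another antagonist, was lower in both Ibsp-led classes, at 21.8 against 83.9 CPM (-1.94) and 35.2 against 94.1 CPM (-1.42). The secreted antagonists thus did not share a direction. In the Wnt list of 13, 1 gene was called higher and 2 lower in either Bglap-led class, 3 and 3 in Ibsp-led Gli1+ and 5 and 2 in Ibsp-led Gli1- cells. Tcf7, a transcription factor of the pathway, was higher in the 3 classes of 21 dpi, Wif1 was at 387 against 19.8 CPM (4.29, 4.16 to 4.42) and 249 against 11.8 CPM (4.40, 4.23 to 4.57) in Ibsp-led cells, and the inhibitors Sfrp1 and Sfrp2 were lower in all 4 classes. Notum, an enzyme that inactivates Wnt ligands, was higher in both Ibsp-led classes, at 18.4 against 2.91 CPM (2.66, 2.12 to 3.17) and 14.1 against 2.71 CPM (2.38, 1.73 to 2.97). The inhibitor Dkk1 and the transcription factor Lef1 were called higher in Ibsp-led Gli1- cells, Lrp5 higher in uninjured Bglap-led and Lrp6 lower in Ibsp-led Gli1+ cells, both of them Wnt co-receptors. Sfrp2 was at 68.8 against 574 CPM (-3.06) and 67.1 against 464 CPM (-2.79) in Ibsp-led cells.

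The study chose the progenitor genes by comparing cell clusters of an earlier published dataset of the injured Achilles tendon. Their ratios here are a description and not evidence of direction. Of Ptn, Dlk1, Mdk, Igf2 and Gnas, 2 were called lower in Ibsp-led cells and none higher: Ptn was at 59.6 against 204 CPM (-1.77, -2.04 to -1.52) and 51.4 against 143 CPM (-1.48), which missed the call in the cells without Col2a1 alone (-0.86 and -1.04), and Mdk, a growth factor related to Ptn, at 67.4 against 192 CPM (-1.51) and 60.1 against 163 CPM (-1.44). Dlk1 had no UMI in any Ibsp-led cell. In Bglap-led cells of 21 dpi, Ptn was called higher, at 631 against 204 CPM (1.63, 1.37 to 1.88); the 6 of these 24 cells with at least 5 Ibsp UMIs held none, which gives an upper bound of -2.69, so the direction of Ptn rested on the cells without Ibsp. None of 8 cell cycle genes was called in the 4 comparisons with Pdgfra cells. Against Col2a1-led cells, 4 of them, Mki67, Ccnb2, Cenpf and Ube2c, were called lower in Ibsp-led Gli1+ cells and none in Gli1- cells.

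Beyond the lists, the leading genes of each class were taken by a rule of size and detection. Uninjured Bglap-led cells were led by Slc13a5, a citrate transporter, at 416 against 0.0490 CPM (13.05, 10.56 to 18.36), Car3, a carbonic anhydrase, at 2405 against 1.52 CPM (10.63, 10.12 to 11.19), and Mlip at 171 against 0.0490 CPM (11.77, 9.26 to 17.08), followed by Gm19299, Entpd3, Prss35, Panx3, Ifitm5, Lipc and Sp7. Their 10 most reduced genes by this rule included Ebf2 at 1.58 against 412 CPM (-8.02, -13.33 to -5.55), Lama2 at 6.32 against 711 CPM (-6.81, -8.69 to -5.46) and Vcan at 1.58 against 339.6 CPM (-7.75, -13.05 to -5.27). The others were Akap12, Ccn3, Ccl11, Abca8b, Fbn1, Cxcl1 and C3. Of the first 3 leading genes, Car3 had a UMI in 33 of 36 Bglap-led cells with Ibsp and 1 of 62 without, Slc13a5 in 27 and 1, and Mlip in 30 and 0. These genes were chosen in uninjured Gli1+ cells, which gave 20 of the 36 cells with Ibsp and 5 of the 62 without. The counts are therefore a description. Bglap-led cells at 21 dpi were led by Ostn, at 375 against 0.244 CPM (10.59, 9.80 to 11.46) and in 45.8% of cells against 0.138%, and further by Slc36a2, an amino acid transporter of osteoblasts, at 99.7 against 0.655 CPM (7.25), Cyfip2, Sp7, Alpl, Gprc5c, 9130024F11Rik, Fat3, Tnfrsf19 and Omd. The acute-phase genes Saa3, at 85.5 against 5166 CPM (-5.92, -6.67 to -5.26), and Hp, at 42.7 against 1077 CPM (-4.66), were lowest in them together with Cxcl5, Slpi and Pi16.

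In Ibsp-led cells the leading genes overlapped between the fractions. Of the genes called higher, 252 were called in both, which is 65.5% of the 385 genes of Gli1+ cells and 65.6% of the 384 of Gli1- cells, and 279 of the lower genes were called in both, 44.7% of 624 and 79.3% of 352. The labels give 1 cohort of 8 mice for both fractions at 21 dpi, and their comparisons share no cells. Panx3, Sp7, Alpl, Smpd3, Slc8a3 (a sodium and calcium exchanger) and 9130024F11Rik were among the 10 leading genes in both. Slc8a3 was at 97.0 against 1.07 CPM (6.51) in Gli1+ cells, where Ifitm5, Tmie, Col13a1 and Susd5 also led, and Scube1 at 76.8 against 2.62 CPM (4.87) in Gli1-, where Spp1, Fat3 and Wif1 also led. Among the lowest genes in both were Pi16, an adventitial fibroblast marker, at 27.6 against 425 CPM (-3.94, -4.35 to -3.57) and 50.3 against 441 CPM (-3.13, -3.44 to -2.84), and Col14a1, a fibril-associated collagen, at 44.1 against 415 CPM (-3.23) and 54.6 against 396 CPM (-2.86). Of the 5 markers of stem-like fibroblasts other than Pdgfra, which chose the compared cells, 4 were called lower in Gli1+ (Ly6a, Pi16, Dpp4 and Cd34) and 5 in Gli1-, and 3 of 6 tenocyte markers were lower as well.

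Within Gli1+ at 21 dpi, Ibsp-led and Bglap-led cells could be set side by side in the same library, as a description, since the split used Ibsp and Bglap. Acan was at 919 CPM in Ibsp-led and 61.7 CPM in Bglap-led cells (log2 ratio 3.90, 3.12 to 4.81), and Hapln1, which links cartilage proteoglycan to hyaluronan, at 516 and 4.75 CPM (6.76, 4.28 to 12.07). Saa3 was at 3334 and 85.5 CPM (5.29, 4.62 to 6.04), with a UMI in 82 of 132 Ibsp-led cells. Of the cartilage list, 9 of 15 tested genes were called higher in Ibsp-led cells and none lower. Over all 8485 genes tested, 1.23% were called higher and 1.69% lower. Acan, Hapln1 and Saa3 were thus on the Ibsp-led side. On the Bglap-led side, Ostn was at 1.94 CPM in Ibsp-led and 375 CPM in Bglap-led cells (-7.60, -9.51 to -6.18), Wnt16 at 7.27 and 195 CPM (-4.74, -5.70 to -3.86), and Ptn at 59.6 and 631 CPM (-3.40, -3.77 to -3.04). Of the 24 Bglap-led cells here, 18 had under 5 Ibsp UMIs.

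Ibsp-led cells of the Gli1+ and Gli1- fractions at 21 dpi differed in few genes. Of 10094 genes, 0.208% were called higher and 0.971% lower in Gli1+ (median -0.13). Among the lists of bone, osteocytes, osteoclast coupling and cartilage, 2 genes were called, Dmp1 and Il34, both lower in Gli1+. They were 1 of 4 osteocyte and 1 of 4 osteoclast coupling genes tested. None was called of 5 osteoblast factors, 9 bone matrix, 7 mineralization, 15 cartilage and 6 hypertrophic cartilage genes tested. Dmp1 stood at 28.1 CPM against 108 CPM (-1.94, -2.39 to -1.52), from the few cells given above. Panx3 was at 207 and 90.3 CPM (1.20, 0.94 to 1.47), which missed the call, and Id1, a BMP target, was at 139.6 CPM in both (0.00, -0.25 to 0.25). Chad, a cartilage matrix protein outside the lists, was at 218 and 677 CPM (-1.63, -1.79 to -1.48). Few of the listed bone and cartilage genes thus passed the limit between the fractions, which does not show that the fractions are alike.

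Markers of other cell types moved with this comparison. Krt14, a keratin of basal epidermis, stood at 124 CPM against 8.12 CPM (3.93, 3.18 to 4.79), with 135 of its 255 UMIs in 1 Gli1+ cell, and 3 of 4 epidermal markers were called higher. Krt14 was also higher in other cells of the Gli1+ library, at 403 against 36.9 CPM in Pdgfra cells and 913 against 41.2 CPM in endothelial cells. Of the endothelial markers, 3 of 3 tested were lower in Gli1+, and the list summed to 9.21 against 68.7 CPM, with at least 2 UMIs in 3 and 14 cells. Hbb-bs, the 1 erythroid marker tested, was also called lower (-2.90), as was Mki67, 1 of 6 cell cycle genes tested. Among the genes lower in Gli1+ were Fabp4 at 49.9 and 272 CPM (-2.44), Lpl at 38.8 and 168 CPM (-2.12) and Apoe at 144 and 409 CPM (-1.50), genes of lipid handling found in endothelial, adipose and marrow stromal cells among others. The part of these markers in the comparison was not tested.

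Immune and Schwann markers were low in Ibsp-led cells at 21 dpi. The immune list summed to 9.21 and 10.3 CPM in the fractions with Ptprc at 0 in both, and the Schwann list to 0.970 and 1.08 CPM. The osteoclast list summed to 362 and 379.8 CPM, nearly all of it Ctsk (341 and 352 CPM), with Calcr and Oscar at 0 in both, Atp6v0d2 at 1 UMI in each and Ocstamp at 1 and 0. It summed to 869 and 711 CPM in the Pdgfra cells, so it was not raised in Ibsp-led cells. In the uninjured Gli1+ library the immune list summed to 1151 CPM in Ibsp-led cells, and 7 of 17 cells held at least 2 of its UMIs. In the same library 7 of these 17 cells were marked as likely doublets, and the Bglap-led cells held 30.0 CPM of immune markers with 0 of 25 marked; over all libraries 37 of the 392 bone-like cells were marked. Their Spp1, at 21062 CPM with a median of 1 UMI and up to 3125 UMIs in a cell, came mostly from few cells. Epidermal markers summed to 2237 CPM in the 3 Ibsp-led cells of Gli1+ at 7 dpi, and tenocyte markers to 3938 CPM in the 5 Bglap-led cells without Ibsp of uninjured Gli1+. The marrow stroma genes Cxcl12, Lepr and Adipoq summed to 5809.9 CPM in the 6 Ibsp-led cells of uninjured Gli1-, with Adipoq in 4 and Lepr in 4 of the 6, against 607 CPM in the Pdgfra cells of that library. In Ibsp-led cells at 21 dpi, Adipoq was found in 3 of 132 and 10 of 130 cells, at 16.5 and 46.5 CPM against 0.655 and 0.331 CPM in Pdgfra cells (4.65, 3.96 to 5.34, and 7.13, 6.46 to 7.87). The part of marrow stroma in the bone-like cells was not tested. Without the cells that held a Ptprc UMI or at least 2 Cdh5 and Pecam1 UMIs, an alternative added after seeing the data, 118 of 130 Ibsp-led Gli1- cells at 21 dpi were left, and 389 genes were called higher and 359 lower in place of 384 and 352.

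Across libraries, the genes of the Ibsp-led cells that did not enter the rule were present in most libraries but on few cells before 21 dpi. Runx2 was found in 13 of 17 and 6 of 6 uninjured Gli1+ and Gli1- cells, 3 of 3 and 4 of 4 at 7 dpi, and 122 of 132 and 119 of 130 at 21 dpi. Sp7 was found in 9 of 17 and 3 of 6, 2 of 3 and 3 of 4, and 77 of 132 and 52 of 130. Pth1r was found in 16 of 17 and 5 of 6, 2 of 3 and 4 of 4, and 118 of 132 and 114 of 130. Runx2 and Pth1r were thus found in most Ibsp-led cells of each library, and Sp7 in fewer. These counts are unthinned, and no background share of Pth1r is given. Acan was found in 8 of 17 and 1 of 6, 1 of 3 and 2 of 4, and 100 of 132 and 75 of 130. The 4 libraries before 21 dpi held 3 to 17 Ibsp-led cells each, too few for ratios.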

How the data were processed

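Single-cell libraries of sorted tendon cells were made by the authors with a 3 prime Chromium kit, and the deposited files hold counts, whole UMIs of each of 33696 genes in each barcode, without normalization. The matrix headers name Cell Ranger 9.0.0 and the submitters' notes name Cell Ranger 3.1.0, STAR and mm10; the annotation release is not given in the sources used here, so no coordinates are printed. The bone-like cells, gene lists and comparisons were chosen with earlier results of these data known. Samples were grouped by their titles, 1 library per condition.

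Counts were read with Python 3.11.15, numpy 2.4.6, scipy 1.17.1 and pandas 2.3.3. Levels are UMIs of a gene added up over the cells of a class, per 1000000 UMIs (CPM), with all cells kept and no doublets removed. Interval and call scripts were tested on simulated data. A log2 ratio against a group with no UMI is a bound with 3 UMIs as the floor. Beside the fixed lists, up to 10 genes per direction were named, ranked by the interval bound nearest 0, with a UMI in at least 25% of the class (higher) or of the Pdgfra cells (lower); other named genes are given as chosen after their values were seen: Ostn, Prg4, Wnt16, Htra4, F13a1 and Clic5 in the cells without Ibsp, Saa3 and Mmp3 in Ibsp-led cells, and Chad, Fabp4, Lpl and Apoe between fractions. For shares, each cell was thinned to 1000 UMIs by 1 random draw, made separately for the classes and for the Bglap-led cells with and without Ibsp. Alternatives included Scrublet in scanpy 1.11.5, which marked the highest-scoring cells at 0.8% per 1000 cells, and scaling by edgeR 4.0.16 (TMM) and DESeq2 1.42.0 size factors in R 4.3.3, both used for scaling factors only. A listed gene that is counted but not named is not reported here.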

Additional observations from a re-analysis of the deposited data

How the results depend on the processing

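With 1 library per condition, counting error alone could be given, 7 dpi held 18 and 16 bone-like cells, and classes under 20 cells had no ratios. No paired analysis was made. Each group had 1 library, and the fractions were not paired or tested over the 3 time points, which are separate conditions. Of the counts, shares and call totals under alternatives, 185 stayed within their limit and 19 moved; of the single gene ratios, 405 stayed the same (51 of them under the mean of per-cell CPM, without a call), 4 became called, 5 lost the call and 1 reversed. At a minimum share of 0.2% of UMIs, 7 dpi kept 9 (0.0894%) Gli1+ and 8 (0.0734%) Gli1- cells, and 21 dpi kept 1.18% and 1.01%. A minimum of 10 UMIs left 9 Bglap-led Gli1+ cells at 7 dpi and 14 at 21 dpi, and removal of likely doublets left 10 Ibsp-led uninjured Gli1+ cells. With Bglap-led cells limited to those with at least 5 Ibsp UMIs, an alternative added after seeing the data, 342 genes were called lower in Gli1+ at 21 dpi in place of 172, and Ptn, with no UMI left, reversed to an upper bound of -2.69. With Ibsp-led cells limited to those without Col2a1, likewise added, 241 genes were called higher and 317 lower in Gli1+, in place of 385 and 624, and 204 lower in Gli1-, in place of 352; fewer cells enter these sums. Thinned to 2000 UMIs, Runx2 was found in 91.7% of uninjured Bglap-led, 62.5% of Bglap-led and 55.0% of Ibsp-led Gli1+ and 54.7% of Ibsp-led Gli1- cells at 21 dpi, and Sp7 in 15.3% and 10.9% of the Ibsp-led cells. TMM put the centre of all genes at -0.31 in uninjured Bglap-led cells, at -0.14 in Ibsp-led Gli1+ cells and at -0.12 between the fractions; Col1a1 in Ibsp-led Gli1+ cells then passed the call at 1.05 and, with DESeq2 size factors, at 1.06. Mmp13 in uninjured Bglap-led cells lost its call in the cells with Ibsp, which held no UMI of it (an upper bound of 0.62 with 3 UMIs as the floor), and Spp1 there lost its call at 1.26 with 2 Pdgfra UMIs required and at 1.22 without likely doublets. The cause of these moves was not tested. The mean of per-cell CPM gave ratios but no interval, so no calls were counted under it.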
